A study of Mus musculus with 4 samples.

Results

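The 8 connexin genes Gja1, Gja4, Gja5, Gjb2, Gjb6, Gjc1, Gjc3 and Gjd2 were followed by RNA sequencing in cortex taken from C57BL/6 mice at embryonic day 15. They were chosen by gene name, and all 8 were present among the 21767 genes listed in either of the 2 deposited tables, each in both tables. The labels give the genotype of the groups as Prdm16cKO, a conditional knockout of the transcriptional regulator gene Prdm16, and Prdm16fl/fl, the control with floxed alleles, with 2 samples in each. The labels do not name the Cre line, the deleted exon or the number of embryos per sample. The title of 1 sample in each group holds the word Blood, which the labels do not explain, and the series text speaks of telencephalic tissue in triplicate where the labels list cortex and 2 samples a group. The tables held 2 libraries of the knockout group, called cKO 1 and cKO 2 here, and 1 library of the control group, called floxed. The other floxed sample was not analysed here, and the numbers 1 and 2 are names that do not tell which sample a library was.

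Connexins are membrane proteins with several spans that assemble into hemichannels, and hemichannels of neighbouring cells dock to form gap junctions that pass ions and small molecules. In the embryonic cortex Gja1 (protein Cx43) and Gjb2 (Cx26) are known from radial glia, the neural stem cells that also guide migrating neurons. Gja1, Gjb2 and Gjb6 (Cx30) are also known from the meninges, Gja4 (Cx37) and Gja5 (Cx40) from arterial endothelium, and Gjc1 (Cx45) from mural cells of vessels and from neurons. Gjd2 (Cx36) is the main connexin of electrical synapses between neurons, and Gjc3 (Cx29) belongs to myelinating glia.

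Total counts came to 19514882 (cKO 1), 18579178 (cKO 2) and 17839662 (floxed). Levels are given in CPM (counts divided by the library total and scaled to a common depth of 1e6). At these depths 3 counts, the limit set here for an observed 0, came to between 0.154 and 0.168 CPM. For Prdm16 itself, cKO 1 held 34.6 CPM, floxed 30.2 and cKO 2 24.1, so 1 library labelled cKO lay above the control. These counts cover the whole gene and the deleted exon is not named, so they cannot show whether the deletion took place. All directions below refer to libraries by their labels. The cKO libraries also stood apart from each other in genes of the meninges. The summed level of 12 meningeal and fibroblast markers was 807 CPM (cKO 1), 507 (floxed) and 32.8 (cKO 2). All 12 radial glia markers were detected in every library, with summed levels of 2798 (cKO 1), 2137 (floxed) and 2736 CPM (cKO 2). Every result on connexins is therefore given for each cKO library alone, and the spread between the cKO libraries is the only replicate error available.

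The promoters of Gja1, Gjb2 and Gjb6, the connexins that differed from floxed beyond counting error in both cKO libraries, are shown first, as the 250 bases before the start of transcription in RefSeq (GRCm38.p6), read 5′ to 3′ on the strand of the gene. Capitals mark GC boxes (GGGCGG, on either strand) and AP-1 sites (TGANTCA). The windows were also searched for a TATA box (TATAAA) and an E-box (CANNTG), all on both strands. Gja1 lies at chr10:56377050-56377299 on the plus strand, Gjb2 at chr14:57104703-57104952 and Gjb6 at chr14:57133612-57133861, both on the minus strand.
Gja1: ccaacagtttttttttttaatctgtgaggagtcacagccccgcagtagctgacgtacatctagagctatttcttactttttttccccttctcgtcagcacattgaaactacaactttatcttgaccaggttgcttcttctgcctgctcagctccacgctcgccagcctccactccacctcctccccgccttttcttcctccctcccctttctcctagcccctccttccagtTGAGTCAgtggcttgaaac
Gjb2: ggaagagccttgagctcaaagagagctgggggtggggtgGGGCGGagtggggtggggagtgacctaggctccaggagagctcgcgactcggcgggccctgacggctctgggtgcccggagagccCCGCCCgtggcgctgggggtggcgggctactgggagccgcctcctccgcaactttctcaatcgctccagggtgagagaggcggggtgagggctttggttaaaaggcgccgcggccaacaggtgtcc
Gjb6: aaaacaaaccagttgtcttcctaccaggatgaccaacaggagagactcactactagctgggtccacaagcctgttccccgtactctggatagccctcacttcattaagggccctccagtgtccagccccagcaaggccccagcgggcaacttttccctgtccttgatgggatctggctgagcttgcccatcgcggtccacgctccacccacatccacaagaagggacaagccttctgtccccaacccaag
The Gja1 window held 1 AP-1 match, which began 19 bases before the start, and no GC box. The Gjb2 window held 2 GC boxes, 211 and 126 bases before the start, and the Gjb6 window held neither motif. None of the 3 windows held a TATA box, which 12.4% of all windows hold, and each held 1 E-box, a motif of 66.2% of windows; that of Gja1 began 23 bases before the start and overlapped the AP-1 match. Of 32841 mouse promoter windows of the same length, 6.75% held the AP-1 letters and 32.7% a GC box on either strand. The Gjb2 window had 18 CpG dinucleotides and a GC content of 69.2%, against 5 and 56.8% for Gjb6, 6 and 50% for Gja1, and medians of 6 and 52.4% over all windows. Gjb2 and Gjb6 had the same order of levels across libraries, described next, which 24.4% of all genes had by value. Any link between these windows and the levels was not tested. Windows were found for 7 of the 8 genes, and Gjc1 had no entry.

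Gja1, the most abundant of the 8 by mean counts, had 2099 counts (cKO 1), 1166 (floxed) and 335 (cKO 2). As levels these were 108, 65.4 and 18.0 CPM, in the same order of libraries, which all lists of levels below follow. The libraries labelled cKO thus lay on either side of the control, and their mean of 62.8 ± 63.3 CPM (SD, n = 2) was close to it. Against floxed, Gja1 was 1.65-fold higher in cKO 1 (exact 95% interval 1.53 to 1.77) and 3.62-fold lower in cKO 2 (3.21 to 4.11). The cKO libraries differed from each other 5.97-fold (5.31 to 6.71), more than either differed from the control. The intervals are Clopper-Pearson limits of the count ratio and cover counting error only, since each compares 1 library with 1 library. The reads carry no molecular identifiers, so even for counting error these intervals may be too narrow. The gene (ENSMUSG00000050953) spans chromosome 10, 56377330 to 56402513, on the plus strand, in GRCm38.

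Gjb2, which encodes a connexin of non-neuronal cells of the brain, had 284 counts (cKO 1), 145 (floxed) and 3 (cKO 2). This corresponded to 14.6, 8.13 and 0.161 CPM, with a cKO mean of 7.36 ± 10.2 CPM (SD, n = 2). The ratio to floxed was 1.79 in cKO 1 (1.46 to 2.2). In cKO 2 the level was 50.3-fold lower, on 3 counts, with an interval from 16.9-fold to 247-fold. Gjb2 was thus close to undetected in 1 library labelled cKO and highest in the other.

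Gjb6, whose product forms mixed channels with that of Gjb2 in several tissues, had 218 counts (cKO 1), 105 (floxed) and 0 (cKO 2). Its levels were 11.2 CPM in cKO 1 and 5.89 CPM in floxed, a ratio of 1.90 (1.5 to 2.42). With cKO 2 set at the limit of 3 counts, Gjb6 came out 36.5-fold lower there than in floxed and 69.2-fold lower than in cKO 1. The exact intervals, which also carry the counting error of the other library, begin lower, at 29.1-fold and 55.8-fold. Within a library, counts of Gjb2 and Gjb6 kept a similar proportion where both were detected, at 1.30 Gjb2 counts per Gjb6 count in cKO 1 (1.09 to 1.56) and 1.38 in floxed (1.07 to 1.79).

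**Figure D1:**
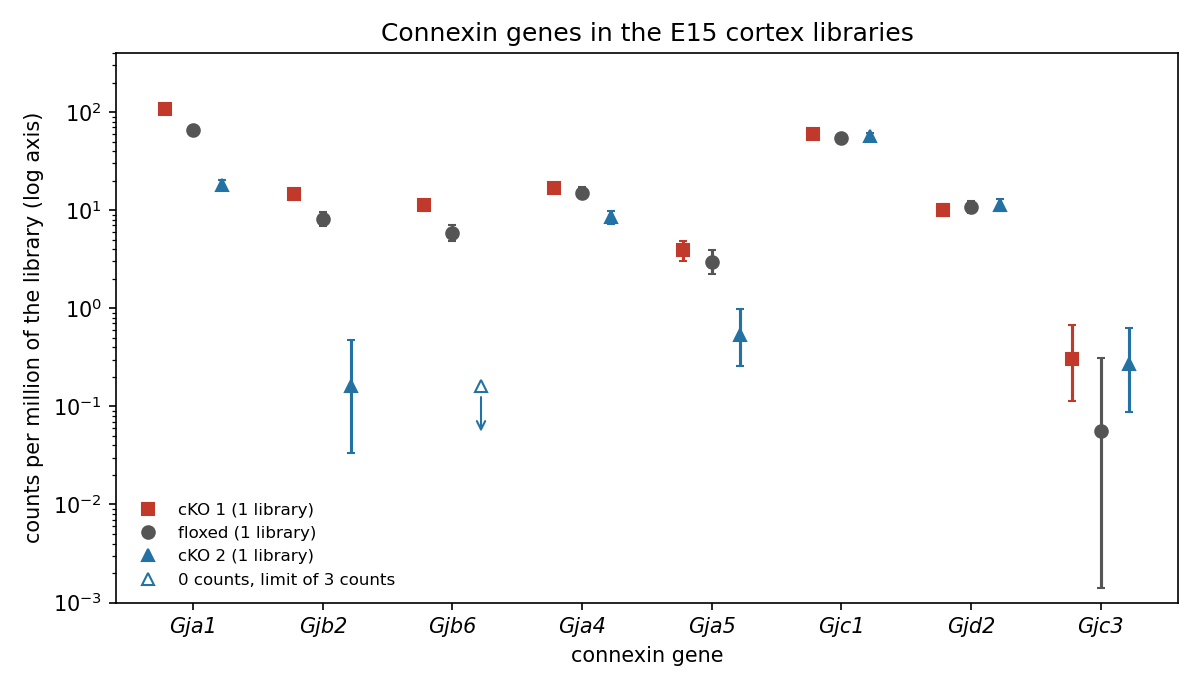
Level of each connexin gene in the 3 libraries, in CPM on a log axis, with exact Poisson 95% intervals as bars; each point is 1 library and the open triangle is a count of 0 placed at the limit of 3 counts. Gja1, Gjb2, Gjb6, Gja4 and Gja5 were highest in cKO 1 and lowest in cKO 2, whereas the points of Gjc1 and of Gjd2 lay close together.

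The arterial connexins Gja4 and Gja5 had the same order of libraries. Gja4 had 326 counts (cKO 1), 270 (floxed) and 157 (cKO 2), that is 16.7, 15.1 and 8.45 CPM. In cKO 1 its ratio to floxed was 1.10, with an interval from 0.936 to 1.30 that includes 1, and in cKO 2 it was 1.79-fold lower (1.47 to 2.19). The mean of the cKO libraries was 12.6 ± 5.84 CPM (SD, n = 2). Gja4 was therefore distinguishable from the control by counting error in cKO 2 alone.

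Gja5 was less abundant, with 76 counts (cKO 1), 53 (floxed) and 10 (cKO 2). The levels were 3.89, 2.97 and 0.538 CPM, with a cKO mean of 2.22 ± 2.37 CPM (SD, n = 2). The ratio in cKO 1 was 1.31 (0.911 to 1.90), and in cKO 2 the level was 5.52-fold lower (2.78 to 12.2). The intervals of the arterial pair in cKO 2 did not overlap, so Gja5 was lower relative to floxed than Gja4 was. In proportion, there were 5.09 Gja4 counts per Gja5 count in floxed (3.78 to 6.97), 4.29 in cKO 1 (3.33 to 5.58) and 15.7 in cKO 2 (8.31 to 33.4). The exons of Gja5 share 165 bases with the antisense gene Gpr89, 2.87% of their length. Those of Gjd2 share 57 bases (1.98%) and 18 bases (0.625%) with antisense entries named A530058N18Rik. The library kit does not mark strand, so reads there cannot be told apart.

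Gjc1 and Gjd2 had similar levels in all libraries. Gjc1 had 1161 counts (cKO 1), 981 (floxed) and 1068 (cKO 2), that is 59.5, 55.0 and 57.5 CPM. Averaged, the cKO libraries held 58.5 ± 1.42 CPM (SD, n = 2). The ratios to floxed were 1.08 (0.993 to 1.18) and 1.05 (0.958 to 1.14). Both cKO libraries lay above the control by little, and both intervals included 1.

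The neuronal connexin gene Gjd2 had 197 counts (cKO 1), 193 (floxed) and 209 (cKO 2). Its levels of 10.1, 10.8 and 11.2 CPM gave a cKO mean of 10.7 ± 0.816 CPM (SD, n = 2). The ratio was 0.933 in cKO 1 (0.761 to 1.14) and 1.04 in cKO 2 (0.851 to 1.27), and a difference from the control was not detectable at this depth. Gjc3 was near the limit of detection, with 6 counts (cKO 1), 1 (floxed) and 5 (cKO 2). Its ratios of 5.48 (0.665 to 252) and 4.80 (0.537 to 227) had intervals that included 1.

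**Figure D2:**
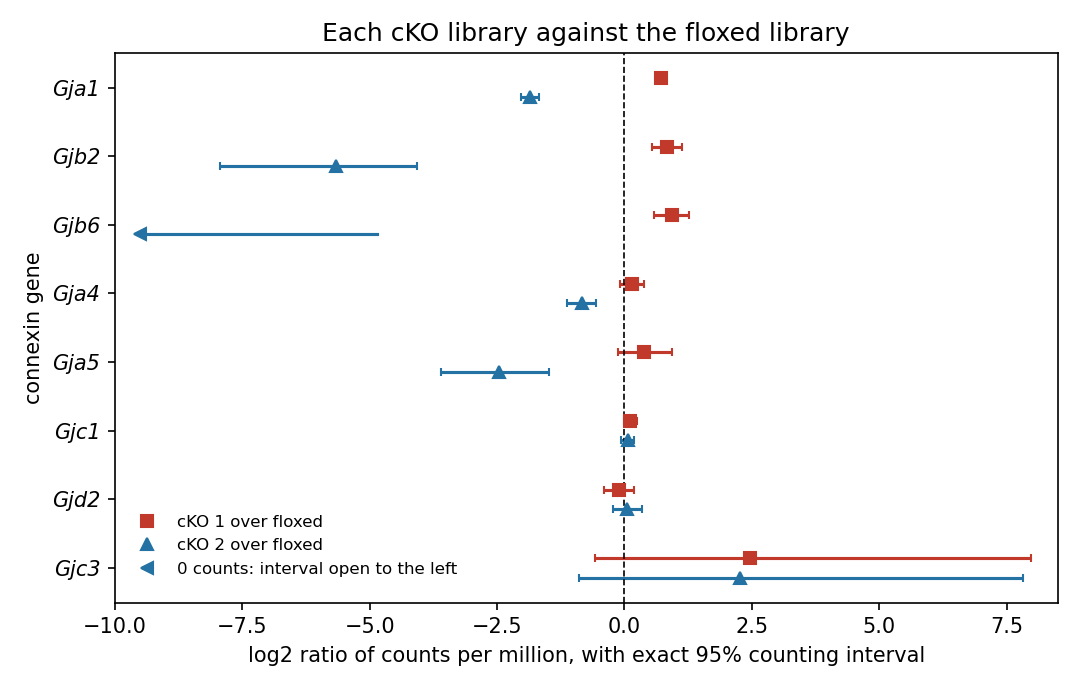
Log2 ratio of each cKO library to the floxed library for the 8 connexin genes, with exact 95% counting intervals; the arrow for Gjb6 marks an interval with no lower end because the count in cKO 2 was 0. For Gja1, Gjb2 and Gjb6 the intervals of cKO 1 lie above 0 and those of cKO 2 below, and for Gjc1, Gjd2 and Gjc3 all intervals include 0.

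Counted by these intervals, 3 of 8 connexins were higher than floxed in cKO 1 (Gja1, Gjb2 and Gjb6) and 0 were lower, where 15% of the 19968 genes in both tables were higher and 14% lower. In cKO 2, 5 of 8 were lower (the same 3 with Gja4 and Gja5) and 0 were higher, against 21.1% and 13.5% of all genes. Being higher in cKO 1 and lower in cKO 2 held for 3 connexins and 3.08% of all genes. By value alone, 5 connexins had that order, against 24.4% of all genes. Gjc1 and Gjc3 had both cKO libraries above floxed, as 26.5% of all genes did, and 0 connexins had both below, where 33.7% of all genes did. For 12746 genes with at least 50 counts in floxed, a depth that 7 of the 8 connexins reached, the shares were 20.4% higher in cKO 1, 27% lower in cKO 2 and 4.35% for both, with 27.8% above floxed in both cKO libraries by value, 31.4% below in both and 23.7% above in cKO 1 and below in cKO 2. Both comparisons use the same floxed library, so its own deviation enters both.

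Among those 12746 genes, 92 (0.722%) had a higher ratio in cKO 1 than Gja1 and 126 (0.989%) a lower ratio in cKO 2. For Gjb2 the numbers were 54 and 9. For Gja5 they were 748 and 70, and for Gja4 3189 and 583. Gjb2 thus lay farther out than Gja4 and Gja5 in both libraries.

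No connexin differed between the genotypes in the test that uses the spread between the cKO libraries. edgeR's quasi-likelihood test called 0 of the 16725 genes it tested (Benjamini-Hochberg adjustment, threshold 0.05; 0.0% in each direction), with 217 genes at an unadjusted p under 0.05, and DESeq2 called 5, none of them a connexin (Ptx3, Fgf15, Gabra2, Moxd1 and Fgfbp3, named after their values were seen). For Gja1 the fitted log2 fold of cKO over floxed was -0.06 (SE 0.95, edgeR adjusted p = 1.0), and for Gjb2 -0.15 (SE 1.79, adjusted p = 1.0). Each SE was worked out as the absolute fitted log2 fold divided by the square root of its F statistic, since the test itself gives none. The standard errors of Gjb6 (2.00) and Gja5 (1.06) were of the same order, with fitted log2 folds of -0.08 and -0.42. Gjc1 had the smallest error among the connexins, with a log2 fold of 0.11 (SE 0.13, adjusted p = 1.0). Gjd2 had a fold of -0.0011 (SE 0.26) and Gja4 of -0.26 (SE 0.43). The expression filter left out Gjc3. The fit has 1 residual degree of freedom and assumes that the lone floxed library varies like the cKO libraries, and nothing in the sources says that libraries came from separate animals, so the spread may be technical.

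The authors' deposited tables compare 1 library with 1 library. They mark 4 of 8 connexins as significant in cKO 2, all lower (Gja1, Gja5, Gjb2 and Gjb6), where 5.62% of the genes of that table are marked lower and 1.11% higher. For cKO 1 they mark 0 of 8, with 1.45% of genes marked higher and 0.891% lower. In the authors' deposited table Gja1 had a log2 fold of 0.72 in cKO 1 (adjusted p = 9.96e-42) and -1.86 in cKO 2 (adjusted p = 4.43e-112), and only the second is marked. The mark is therefore not set by the adjusted p alone, and an unmarked gene can still differ between libraries. The unmarked log2 folds of Gjb2 (0.84) and Gjb6 (0.92) in cKO 1 and Gja4 (-0.84) in cKO 2 were smaller in size than all 4 marked ones. The authors' p-values compare libraries and not genotypes.

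Added over the 8 genes, connexin counts made up 224 CPM in cKO 1, 96.2 in cKO 2 and 163 in floxed. The composition differed as well as the sum. Gja1 gave 40.01% of connexin counts in floxed, 48.1% in cKO 1 and 18.7% in cKO 2. Gjc1 gave 33.7%, 26.6% and 59.8%, and was the leading connexin by counts in cKO 2 alone. Measured against Gjc1 in the same library, which removes the scaling between libraries, there were 1.19 Gja1 counts per Gjc1 count in floxed (1.09 to 1.30), 1.81 in cKO 1 (1.68 to 1.94) and 0.314 in cKO 2 (0.277 to 0.355).

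**Figure D3:**
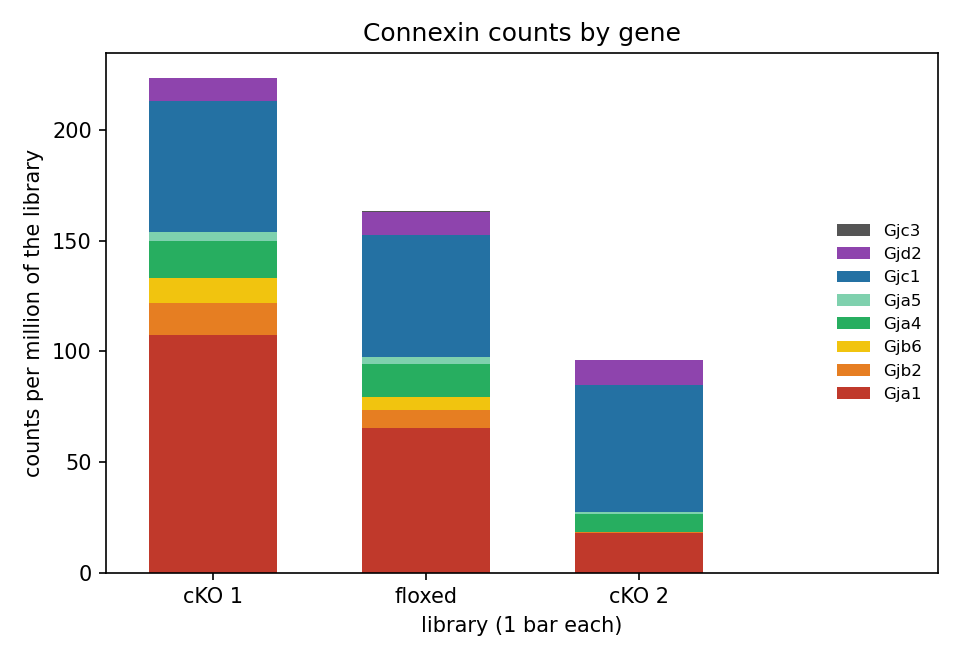
Connexin level (CPM) in each of the 3 libraries (1 bar each), stacked by gene in the order of the key. The bar of cKO 2 is the lowest at 96.2 CPM, and most of it is Gjc1, while Gja1 is the largest segment in cKO 1 and floxed.

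Per length of exons in GENCODE M21 (RPKM), the order in floxed was Gjc1 at 11.0, Gja4 at 8.98, Gja1 at 6.37, Gjd2 at 3.76, Gjb2 at 3.38, Gjb6 at 2.2, Gja5 at 0.517 and Gjc3 at 0.013 RPKM. Counting intervals of Gjd2 (3.25 to 4.33) and Gjb2 (2.85 to 3.98) overlapped, and those of the other neighbours in this order down to Gja5 did not. The position of Gja1 depends on the gene model, since its annotated exons cover 10257 bases and its RefSeq-matched transcript 3071. Per length of that transcript, an alternative chosen after seeing the data, Gja1 had 21.3 RPKM in floxed beside 23.8 for Gjc1 and 8.98 for Gja4. In cKO 2 Gja1 stood at 5.87 and Gjc1 at 24.8 RPKM on this scale, and in cKO 1 at 35.0 and 25.7.

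Meningeal markers had the same order across libraries as Gja1, Gjb2 and Gjb6, and so did most markers of several other lists. By value it held for 12 of 12 meningeal, 11 of 12 endothelial and 9 of 10 pericyte and smooth muscle markers. It also held for 8 of 9 microglia and macrophage, 7 of 10 arterial and 6 of 8 choroid plexus markers, against 24.4% of all genes. For oligodendrocyte precursors it was 2 of 7, and for inhibitory neurons and red blood cells 1 of 8 each. Of 12 meningeal and fibroblast markers, 11 lay above floxed in cKO 1 beyond counting error and all 12 below it in cKO 2. Of genes with at least 50 counts in floxed, 20.4% and 27% did so. The median log2 ratios of these markers were 0.67 and -3.99. Col3a1, a fibrillar collagen and the most abundant of the list, had 4190, 2431 and 127 counts. Slc22a6, an organic anion transporter of the leptomeninges and the lowest of the list in cKO 2, had 600, 356 and 1. In cKO 1 the log2 ratios of Gja1 (0.72), Gjb2 (0.84) and Gjb6 (0.92) lay near those of this list, which ran from 0.29 to 0.87. In cKO 2 Gjb2 at -5.65 lay within its range of -8.53 to -1.23, and Gjb6, with its count of 0 set to 3 counts, was placed at -5.19. Gja1 at -1.86 lay at the upper edge of that range, above the list median. Only Crabp2 (-1.23) was less reduced, and the next marker was Foxc1 at -2.04. The part of meningeal cells in the connexin differences was not tested. In such bulk samples, fewer cells of a type and less RNA per cell cannot be told apart.

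Of the radial glia markers, 2 of 12 (Sox2 and Glul) had that order by value. Of the 12, 7 were higher in cKO 1 and 9 in cKO 2 beyond counting error. In cKO 2, 1 (Glul, glutamine synthetase) was lower. Of genes with at least 50 counts in floxed, 20.4% and 19.0% were higher, and 27% were lower in cKO 2. The list had median log2 ratios of 0.28 and 0.32. The intermediate filament gene Vim had log2 ratios of 0.58 and 0.61, and the fatty acid binding protein gene Fabp7 of 0.47 and 0.51. The list ran from -0.40 to 0.69 in cKO 2. The Gja1 ratio of -1.86 in cKO 2 lay below every member of the radial glia list, and its ratio of 0.72 in cKO 1 above every member, where the highest was 0.63 for Sox9.

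Endothelial markers had medians of 0.16 in cKO 1 and -0.82 in cKO 2. Beyond counting error, 5 of 12 were higher in cKO 1 and 12 of 12 lower in cKO 2. The shares were 20.4% and 27% of genes with at least 50 counts in floxed. The Gja4 ratios of 0.14 and -0.84 were close to those medians. Gja5, at -2.46 in cKO 2, lay below the lowest endothelial marker (Tek, -1.06) and below the 9 arterial markers with counts in that library (lowest Mgp, -1.64). The arterial list had medians of 0.07 and -0.57, and Bmx was at 0 counts in cKO 2 with 6 in floxed. Pericyte and smooth muscle markers, cells in which Gjc1 is known, had medians of 0.30 and -1.06. Rgs5, the most abundant of them, had log2 ratios of 0.29 and -0.63, and Pdgfrb of 0.19 and -1.08. The lowest in cKO 2 was Acta2, the smooth muscle actin gene, with 248, 173 and 3 counts. Tagln was at 0 counts in cKO 2 with 6 in floxed. The Gjc1 ratio in cKO 2 (0.06) lay above all 10 of these markers, which ran from -5.91 to -0.31 with Tagln set to 3 counts. Over all 19968 genes the medians were 0.01 and -0.06. The part of vascular cells in the levels of Gja4, Gja5 and Gjc1 was not tested.

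**Figure D4:**
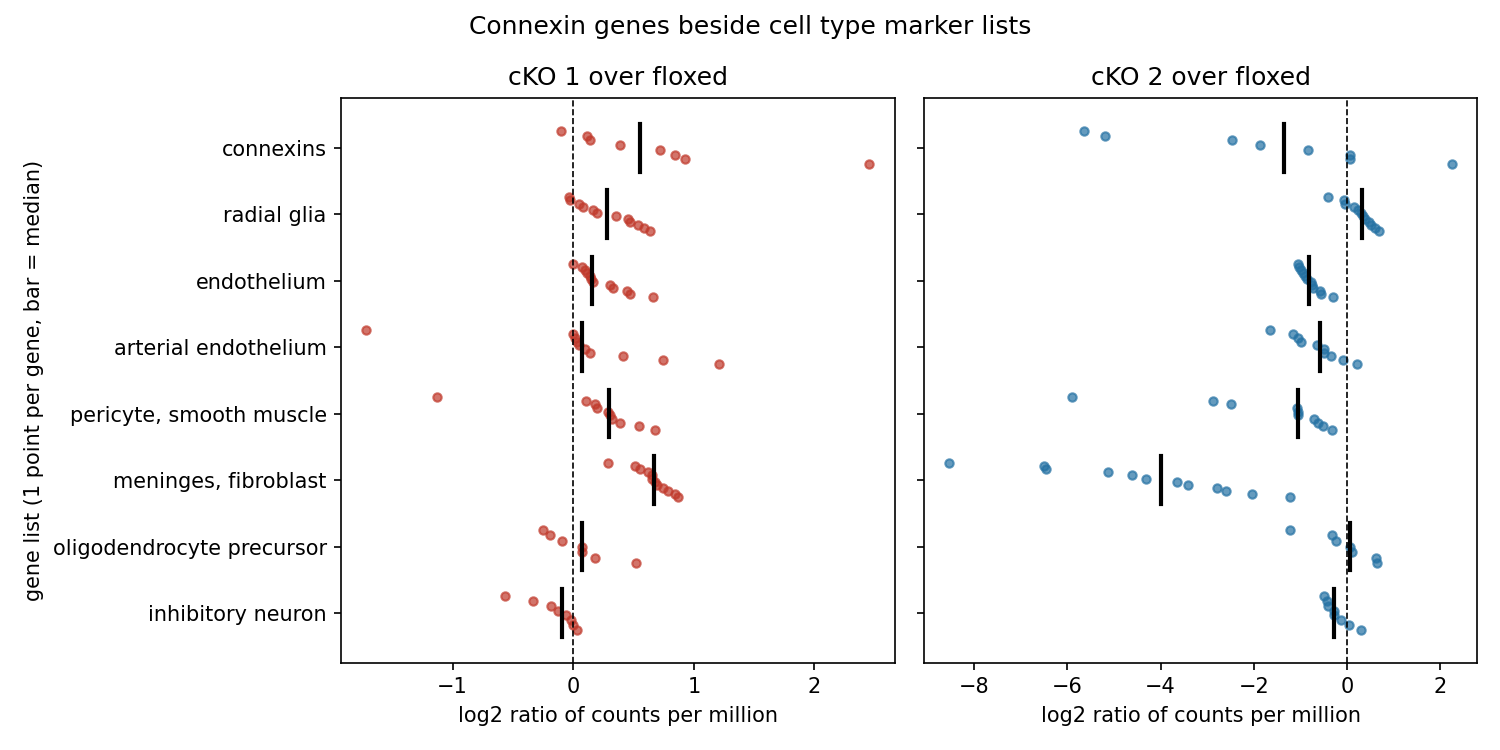
Log2 ratio of cKO 1 (left) and cKO 2 (right) to floxed for the connexins and 7 marker lists, with 1 point per gene and a bar at the median; the panels have different horizontal scales, and a count of 0 is placed at the limit of 3 counts. In cKO 2 the meningeal markers have a median of -3.99 and the radial glia markers of 0.32, and the connexins spread over both ranges.

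The inhibitory neuron list, a population known to use Gjd2, had medians of -0.09 and -0.28, and the oligodendrocyte precursor list of 0.07 and 0.06. The latter ran from -1.23 to 0.64 in cKO 2, and its lowest member, the growth factor receptor gene Pdgfra, had 588, 374 and 166 counts, in the order of the meningeal markers. Sox10, a regulator of oligodendrocyte and neural crest lineages, had 74, 72 and 117 counts. Gjc3 with at most 6 counts is too shallow to be set beside it. Choroid plexus markers had medians of 0.21 and -1.69, microglia and macrophage markers of 0.36 and -0.73, and red blood cell markers of 0.21 and -0.07. In cKO 2 the microglia and macrophage list ran from -6.05 to -0.37, lowest for Lyve1, F13a1 (-5.29) and Mrc1 (-4.17).

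Gjb2 and Gjb6 lie next to each other on chromosome 14, at 57098600 to 57104702 and 57123303 to 57133611, both on the minus strand and 18.6 kb apart. Within 300 kb on either side of the pair, 5 other genes were listed in both tables. The zinc finger gene Zmym2 had ratios of 1.20 in cKO 1 (1.12 to 1.29) and 1.13 in cKO 2 (1.05 to 1.21). Cryl1, a crystallin-like dehydrogenase gene, had 0.937 (0.721 to 1.22) and 0.651 (0.484 to 0.872). None of the 5 was below 0.651 in cKO 2, so the very low level there was seen in Gjb2 and Gjb6 and not in the listed genes beside them. Gja3, a lens connexin gene of the same cluster, had 2 counts in cKO 1 and 1 in floxed and was not listed with cKO 2. Gja4 lies on chromosome 4, at 127311421 to 127314039.

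The pannexins, a related family, form large membrane channels without docking. Panx1 had 96.5, 114 and 105 CPM, ratios of 0.850 (0.798 to 0.906) and 0.927 (0.871 to 0.987). Panx2 had 23.9, 23.4 and 26.3 CPM, with both intervals including 1. In edgeR's test Panx1 and Panx2 had adjusted p values of 1.0.

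Genes of proteins that bind, modify or anchor gap junctions differed less than Gja1. Of 14 listed, 5 lay above floxed in cKO 1 and below it in cKO 2 beyond counting error. That pattern held for 3.08% of all genes, and for 4.35% of those with at least 50 counts in floxed. In both cKO libraries 0 of the 14 were higher and 1 was lower, where 868 and 1279 of all 19968 genes were. Of the 14, 0 passed edgeR's test, which called 0 of all 16725 genes tested. Dbn1, the partner with the highest level, had the reverse of the first pattern. Its ratios were 0.946 in cKO 1 (0.929 to 0.962) and 1.09 in cKO 2 (1.07 to 1.11). The next highest, Nedd4, had ratios of 1.08 (1.05 to 1.11) and 0.960 (0.937 to 0.984). It had 12480 counts in floxed, and at such depth ratios this close to 1 lie beyond counting error. The scaffold gene Tjp1, whose product ZO-1 binds the tail of Cx43, had 73.3, 59.98 and 46.1 CPM. Cav1, the caveolin of endothelium and mural cells, had 29.7, 23.5 and 14.2 CPM. Prkca, a kinase that phosphorylates Cx43, was lower in both libraries, at 31.3, 39.7 and 30.2 CPM, ratios of 0.789 (0.707 to 0.880) and 0.762 (0.681 to 0.853).

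Genes with a pattern like that of Gja1 were sought among 10151 genes of at least 10 CPM on average, by the distance between the pairs of log2 ratios over the 3 libraries. The nearest were Hddc3 (distance 0.024), the coagulation inhibitor gene Tfpi (0.069), the neonatal Fc receptor gene Fcgrt (0.117), the forkhead factor gene Foxc1 (0.186) and the basement membrane gene Nid2 (0.216). Foxc1 is also in the meningeal list, and had 23.6, 14.6 and 3.55 CPM. The nearest to Gjc1 were the thrombin receptor gene F2r, Erp29, Skida1, Cfdp1 and Gm45768, all within 0.004. Near the centre of the distribution many genes have such ratios, and 3 libraries cannot separate them.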

How the data were processed

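RNA from the cerebral cortex of embryos was made into libraries with an Illumina TruSeq kit, per the labels' protocols. The authors deposited raw counts per gene for each library, per the file headers, and their own log2 folds and adjusted p-values, each of 1 library against 1 library, by a test that the sources used here do not name. Bowtie2 2.2.3, TopHat2 2.0.12, HTSeq 0.6.0 and mm9 are named in the submitters' processing notes, but the positions in the tables equal those of GENCODE M21 (GRCm38) for all 8 connexins, so coordinates are called GRCm38. Columns were assigned to groups by KO or WT in their names.

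The floxed column was identical in both tables for the 19968 shared genes and was used once. CPM used the sum of all listed genes. Ratios carry exact Clopper-Pearson 95% intervals. edgeR 4.0.16 in R 4.3.3 tested shared genes (default filter, minimum count 10, TMM, common biological coefficient of variation 0.218); DESeq2 1.42.0, other scalings, no filter, genes of either table and leaving out a library were alternatives. The fit was run on simulated counts with less spread between libraries than these data have, and the intervals on counts with counting error alone. These runs check the code and do not show how the fit performs at the spread of these data. In list medians a count of 0 was set to 3. Members, gene lists, the rule for named genes (all members, listed genes of fixed families, leading markers, the 5 nearest patterns) were chosen with earlier results of these data known. Some genes, among them Tjp1, Cav1, Slc22a6, Acta2 and Sox10, were named outside that rule. Some further connexin genes are not reported here.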

Additional observations from a re-analysis of the deposited data

How the results depend on the processing

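The counts of connexins higher in cKO 1 (3) and lower in cKO 2 (5) were the same with TMM-scaled totals and DESeq2 size factors, which shifted log2 ratios by at most 0.049. The count of genes called over the whole table was 0 with edgeR and TMM, with DESeq2 size factors, without the filter on low counts and with genes listed in either table. It was 1 with library totals only (Ptx3) and 5 with DESeq2, and the cause was not tested. Over 5 alternative fits of 7 connexins, 0 of 35 had an adjusted p under 0.05. The Gjd2 fold, -0.0011 in edgeR, reversed to 0.0076 without the filter and 0.0026 with DESeq2. Leaving out a cKO library leaves 1 library against 1 and no test. The log2 fold of the cKO mean over floxed then ran from -1.86 (without cKO 1) to 0.72 (without cKO 2) for Gja1, where both gave -0.06. It ran from -5.65 to 0.84 for Gjb2, from -5.19 (0 set to 3 counts) to 0.92 for Gjb6, from -2.46 to 0.39 for Gja5 and from -0.84 to 0.14 for Gja4. For Gjc1 it ran from 0.06 to 0.11, for Gjd2 from -0.10 to 0.06 and for Gjc3 from 2.26 to 2.46. Each direction of Gja1, Gja4, Gja5, Gjb2 and Gjb6 in the mean therefore rests on cKO 2. No paired analysis was possible because both cKO libraries were set beside the same floxed library. Depth limits Gjc3, and Gjb2 and Gjb6 in cKO 2.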
